A study of Mus musculus with 2 samples.

Results

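The barcodes described here were those in which Ccna1, the cyclin A of meiotic germ cells, led Piwil1 and was not passed by Acrv1, and they were labelled diplotene to secondary spermatocytes. A barcode was taken when it held 8000 or more UMIs (unique molecular identifiers, which tag transcripts one by one), at most 10% mitochondrial UMIs, at least 3 Ccna1 UMIs, more Ccna1 than Piwil1 UMIs and at least as many Ccna1 as Acrv1 UMIs. Of 17408 control barcodes 616 met this rule, and of 20601 Dot1L cKO barcodes 791, or 1407 of 38009 in all. Testes were dissociated whole, and single cells were profiled with a droplet 3′ kit in 1 library per genotype. Control mice were Dot1L fl/+; Cre-. Mice of the conditional knockout, called cKO here, were Dot1L fl/delta; Ddx4-Cre+, so the Cre was driven by a germ cell gene. Both genotypes carry a floxed Dot1L allele, and by genotype the second allele is wild type in control and delta in cKO somatic cells. The labels give no age, strain or number of animals per library.

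Pachytene spermatocytes store transcripts for the meiotic divisions, and at diplotene and metaphase the cyclin-dependent kinases, Aurora kinases and Polo kinase are put to use. Piwil1, a piRNA-binding Argonaute protein, marks pachytene cells, and Acrv1, a protein of the acrosome, marks round spermatids. By these genes the rule places the Ccna1-leading barcodes between these stages. The sex chromosomes are silenced through pachytene and part of their genes are expressed again in spermatids. DOT1L is the methyltransferase of a lysine in the globular core of histone H3, a mark found on transcribed genes.

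With 1 library per genotype no test was possible, so every difference below is between those libraries and has no replicate check. Levels are UMIs summed over the barcodes of a class and scaled to counts per 1000000 UMIs (CPM), and ratios are log2 of cKO over control CPM. Intervals are 95%, exact Poisson for sums, exact conditional binomial for ratios and Clopper-Pearson for shares, and they cover counting error only. Summed UMIs of the class were 18191115 (control) and 23773422 (cKO), with medians of 22565 and 21568 per barcode. Thinned to 8000 UMIs, with no barcode left out, the median number of genes was 3000 and 3122, against 5034 and 5146 before thinning. Across all barcodes 102 sequences occurred in both libraries, and 1 within the class. The class is set beside barcodes of the same UMI and mitochondrial limits in which Piwil1 led (249 and 288) or Acrv1 led (1542 and 1250). Piwil1-leading barcodes also held at least 3 Ccna1 UMIs, and Acrv1-leading barcodes at least 3 Acrv1 UMIs. The Piwil1-leading barcodes are thus not all pachytene cells, and they were deeper, with median UMIs of 57160 (control) and 52162.5 (cKO). Median UMIs of Acrv1-leading barcodes were 20590.5 and 19959.5. Acrv1-leading barcodes with 2% or more of UMIs from Tnp1, Tnp2, Prm1 and Prm2 were left out.

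Some barcodes of the class held RNA of other cells. Tnp1, Tnp2, Prm1 and Prm2, which belong to late spermatids, supplied 2% or more of UMIs in 35 control (5.68%) and 49 cKO barcodes (6.19%). At least 10 UMIs of 5 Leydig cell markers were found in 1 control and 16 cKO barcodes. Barcodes of over 100000 UMIs numbered 7 and 10 and held 4.46% and 7.75% of the UMIs of the class. The largest had 135251 and 268764 UMIs. Leaving out all of these kept 573 and 730 barcodes.

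The 4 markers given for the class were set against both neighbours to check its label. Aurka, the Aurora A kinase of spindle assembly, was at 346 CPM in control and 307 CPM in cKO barcodes of the class. It was at 204 and 196 CPM in Piwil1-leading and at 95.4 and 83.4 CPM in Acrv1-leading barcodes. Nek2, a centrosomal kinase, was at 169 and 159 CPM in the class, at 147 and 155 in Piwil1-leading and at 30.5 and 36.6 in Acrv1-leading barcodes. Aurka was thus highest in the class in both libraries, whereas Nek2 was within 1.5-fold of its level in Piwil1-leading barcodes. Cdc25c, the phosphatase that activates Cdk1, matched the label on the Piwil1 side only. It was at 16.2 and 15.9 CPM in the class, at 5.18 and 4.26 CPM in Piwil1-leading and, against the label, at 24.7 and 22.6 CPM in Acrv1-leading barcodes. Ccna1 itself chose the barcodes, and its 247 and 308 CPM are a description.

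Some other genes of the divisions were also higher in the class than in both neighbours. Over both neighbours and in both libraries, 439 of 14366 measured genes (50 or more UMIs over both libraries) were 1.5-fold or more higher in the class, a background of 3.06%, and 114 were lower (0.794%). The barcodes were chosen by expression, so these counts are descriptions. Of 29 measured cyclins, kinases and phosphatases of entry into division, 6 were higher than in both neighbours, among them Ccnb1, Cdc25a, Incenp, Aurka and Plk1. The sixth was Ccna1, which chose the barcodes, and Aurka is also a marker given for the class. Of 33 spindle, centromere, condensin and cytokinesis genes 6 were higher, namely Spc25, Cenpe, Kif23, Nusap1, Ncaph and Kif4. None of 28 genes of the anaphase promoting complex, spindle checkpoint and cohesion protection was higher than in both, and 13 of them were higher than in Acrv1-leading barcodes, where the background was 36.3%.

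Among genes at 50 CPM or more in the class, Spc25, a subunit of the kinetochore complex that holds microtubules, had the widest margin. It was at 126 CPM in control and 86.7 CPM in cKO barcodes of the class, against 35.1 and 23.6 CPM in Piwil1-leading and 34.5 and 26.8 CPM in Acrv1-leading barcodes. Its lowest log2 difference over the neighbours was 1.69. Rgcc followed with 1.41, then Kif23, the central spindle kinesin, with 1.39, and Cenpe, the kinetochore kinesin, with 1.18. Plk1, the Polo kinase, had 0.90. Dnaic2, a dynein intermediate chain of cilia and flagella, had 0.94 and Rfx8 had 0.91. Prm1 and Prm2, the protamines, also came out by this rule with 1.02 each. The limit on late spermatid UMIs lowered them in Acrv1-leading barcodes, and 39.8% and 38.3% of the Prm1 UMIs of the class lay in 10 barcodes of each library.

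Promoters are shown for Ccna1, which defines the barcodes, and for 4 division genes that were high in them, 3 with and 1 without a match, because many cell cycle genes hold a short element known as CHR. The sequences are RefSeq promoters of GRCm38.p6, the build known as mm10, from 250 bases before to 50 bases after the start, written 5′ to 3′ on the strand of the gene. Capitals mark TTTGAA or TTCGAA, searched on both strands.
Ccna1 (chr3:55055006-55055305, minus strand): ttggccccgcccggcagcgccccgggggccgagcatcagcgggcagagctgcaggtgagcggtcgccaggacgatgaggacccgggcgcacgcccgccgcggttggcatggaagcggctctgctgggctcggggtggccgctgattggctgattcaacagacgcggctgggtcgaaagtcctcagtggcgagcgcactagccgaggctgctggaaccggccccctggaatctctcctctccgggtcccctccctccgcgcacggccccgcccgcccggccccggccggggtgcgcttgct
Aurka (chr2:172370521-172370820, minus strand): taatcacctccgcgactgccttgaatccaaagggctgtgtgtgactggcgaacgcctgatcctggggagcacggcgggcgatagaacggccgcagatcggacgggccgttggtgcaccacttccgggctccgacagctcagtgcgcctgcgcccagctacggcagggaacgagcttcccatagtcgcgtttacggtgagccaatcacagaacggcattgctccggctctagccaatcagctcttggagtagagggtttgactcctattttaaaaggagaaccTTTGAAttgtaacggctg
Plk1 (chr7:122159185-122159484, plus strand): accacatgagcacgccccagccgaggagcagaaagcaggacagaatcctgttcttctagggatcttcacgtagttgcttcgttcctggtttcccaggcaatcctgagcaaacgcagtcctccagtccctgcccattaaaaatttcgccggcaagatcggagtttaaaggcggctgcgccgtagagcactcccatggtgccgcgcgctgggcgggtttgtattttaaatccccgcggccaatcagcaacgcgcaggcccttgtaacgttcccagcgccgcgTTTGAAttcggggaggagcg
Spc25 (chr2:69206164-69206463, minus strand): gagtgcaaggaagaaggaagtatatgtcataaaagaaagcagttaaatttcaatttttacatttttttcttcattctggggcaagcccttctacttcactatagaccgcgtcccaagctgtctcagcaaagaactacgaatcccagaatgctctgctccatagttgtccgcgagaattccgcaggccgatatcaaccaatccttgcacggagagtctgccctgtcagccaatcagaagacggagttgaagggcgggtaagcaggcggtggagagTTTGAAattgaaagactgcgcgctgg
Cenpe (chr3:135212313-135212612, plus strand): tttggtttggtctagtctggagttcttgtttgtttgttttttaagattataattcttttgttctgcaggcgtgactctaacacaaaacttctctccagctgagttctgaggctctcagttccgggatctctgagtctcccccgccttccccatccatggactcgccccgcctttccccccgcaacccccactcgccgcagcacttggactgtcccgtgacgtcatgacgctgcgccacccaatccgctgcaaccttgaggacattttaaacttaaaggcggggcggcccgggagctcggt

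In Aurka, Plk1 and Spc25 the capitals began 32, 30 and 24 bases after the start, and the Ccna1 and Cenpe windows held neither form. Of 79 genes of the 3 division lists with a RefSeq promoter, 41 (51.9%) held either form in at least 1 promoter, against 21.7% of 27025 genes. The MYB type letters GGCNGTT were in 29.1% of division genes and 13.6% of all genes, and the CRE letters TGACGTCA in 5.06% and 2.03%. Of the 15 genes named as high in the class 14 had a promoter, and 5 of them (35.7%) held a CHR form. The 5 include Prm2, which the limit on late spermatid UMIs lowered in Acrv1-leading barcodes. The 14 include Ccna1, which chose the barcodes. Of 25 early spermatid genes with a promoter, 16.0% held it. A match describes letters only and says nothing of binding.

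**Figure D1:**
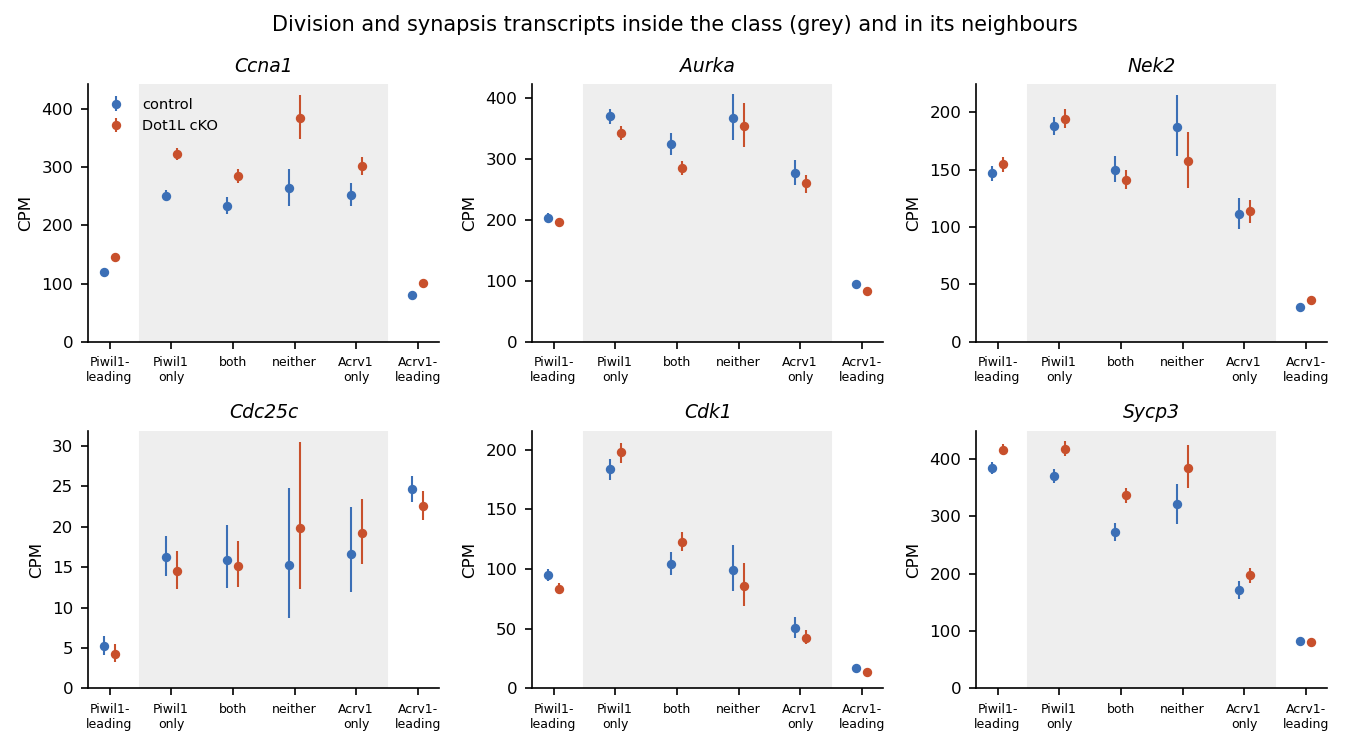
Levels in CPM (vertical axis, linear) of Ccna1, Aurka, Nek2, Cdc25c, Cdk1 and Sycp3 in control and Dot1L cKO barcodes, with exact Poisson 95% intervals as bars. The shaded columns are the class split by whether a barcode holds Piwil1 or Acrv1 UMIs, and the outer columns are the neighbours. Aurka is higher in every shaded column than in either neighbour, and Cdc25c is highest in Acrv1-leading barcodes.

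The class was split into 4 ranges by the presence of Piwil1 and Acrv1 UMIs, and other genes differed between them. Piwil1 and Acrv1 are genes of the rule, so the ranges are a description and not a measured order of stages. The part of RNA of other cells in these differences was not tested. Control barcodes fell into 285 with Piwil1 alone, 146 with both, 58 with neither and 127 with Acrv1 alone. The cKO barcodes fell into 281, 206, 60 and 244. These ranges also differ in depth, with control median UMIs of 31250, 22949.5, 17072.5 and 17815 in that order. Cdk1, the kinase partner of the cyclins, was at 184 CPM with Piwil1 alone and 50.5 CPM with Acrv1 alone in the control, and at 198 and 42.5 CPM in the cKO library. Sycp3, of the axis of the synaptonemal complex, went from 370 to 171 CPM and from 418 to 197 CPM. Tex14, which blocks abscission of germ cell bridges, went from 150 to 34.8 CPM and from 137 to 41.8 CPM.

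Spermatid transcripts went the other way over the same ranges. Spaca1, a protein of the acrosomal membrane, was at 14.7 CPM with Piwil1 alone and 278 CPM with Acrv1 alone in the control, and at 26.7 and 349 CPM in the cKO library. Tssk1, a kinase of spermiogenesis, went from 16.2 to 188 CPM and from 19.5 to 232 CPM. In Piwil1-leading barcodes Spaca1 was at 25.1 and 36.5 CPM and Tssk1 at 24.2 and 29.7 CPM, above their levels with Piwil1 alone. Some division genes stayed level throughout. Ccnb2 was at 339, 346, 363 and 345 CPM over the 4 control ranges and at 292, 290, 330 and 331 CPM over the cKO ranges. Aurka was higher with Piwil1 alone than with Acrv1 alone, with 370 against 277 CPM in the control and 342 against 260 CPM in the cKO library.

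Sex chromosome output was lowest with Piwil1 alone and highest with Acrv1 alone. X-linked genes supplied 0.112% of control UMIs with Piwil1 alone, 0.312% with both, 0.274% with neither and 0.581% with Acrv1 alone. The cKO values were 0.145%, 0.387%, 0.382% and 0.606%, each above the control value of the same range. Piwil1-leading barcodes had 0.0750% and 0.100%, and Acrv1-leading barcodes 1.11% and 1.14%. Y-linked genes supplied 0.00305%, 0.0175%, 0.0112% and 0.0309% over the 4 control ranges and 0.00390%, 0.0213%, 0.0120% and 0.0499% over the cKO ranges. Barcodes with neither gene thus had less Y-linked output than those with both, and in the control less X-linked output, while X-linked output of the cKO library was within its counting intervals.

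**Figure D2:**
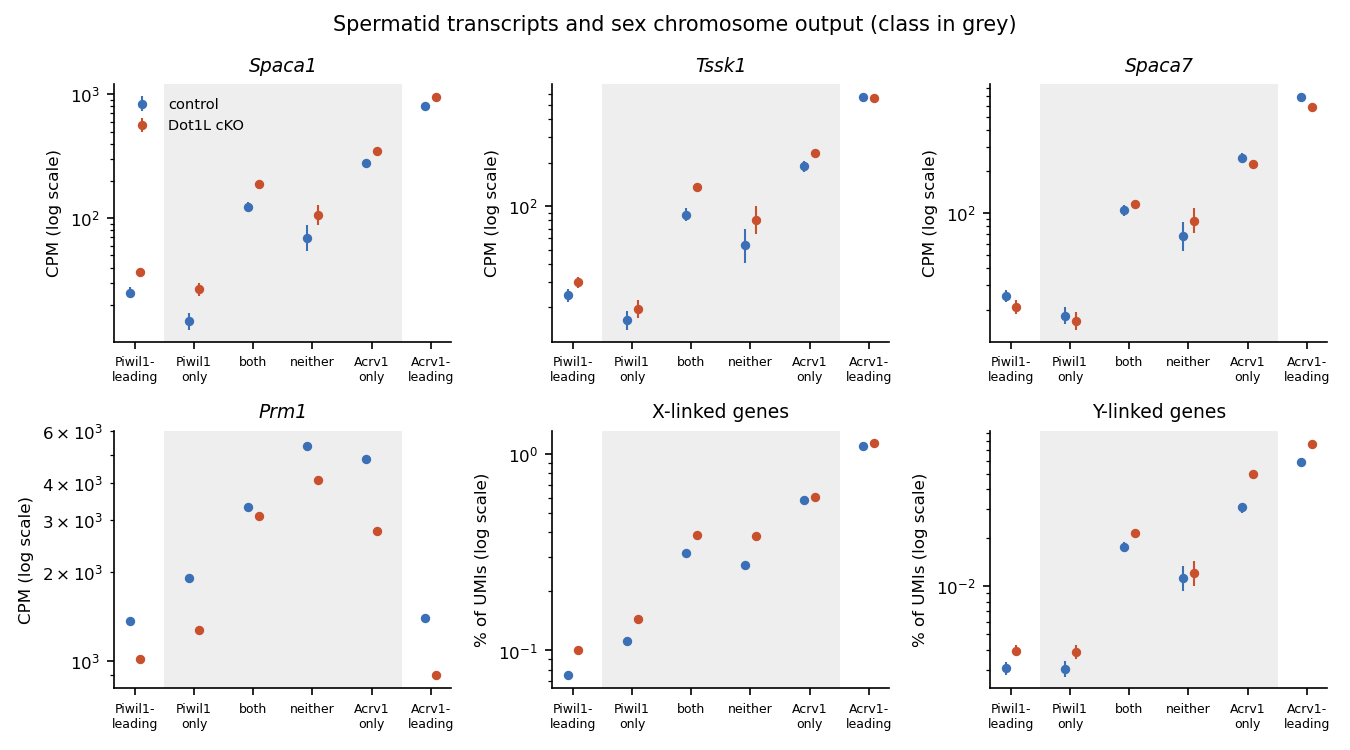
Levels in CPM (log axes) of Spaca1, Tssk1, Spaca7 and Prm1, and the percent of UMIs from X-linked and Y-linked genes (log axes), in control and Dot1L cKO barcodes with exact 95% intervals. Columns are ordered as Piwil1-leading, the 4 shaded ranges of the class, and Acrv1-leading. Spaca1 and Tssk1 are lowest with Piwil1 alone and X-linked output in Piwil1-leading barcodes. Each of them is highest in Acrv1-leading barcodes, while Prm1 is highest inside the class.

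The class made up more of the large barcodes of the cKO library than of the control library. Of barcodes with 8000 or more UMIs it was 11.3% (10.5 to 12.2) in control and 15.8% (14.8 to 16.8) in cKO, and the log2 of their ratio was 0.48 (0.33 to 0.64). Over all barcodes within the mitochondrial limit the shares were 3.87% (3.58 to 4.19) and 4.29% (4.00 to 4.59). Among the class and its neighbours alone they were 25.6% and 34.0%, with Piwil1-leading barcodes at 10.3% and 12.4% and Acrv1-leading barcodes at 64.1% and 53.7%. The rule rests on Ccna1 and on a UMI minimum, and Ccna1 was itself higher in cKO barcodes. Its log2 ratio was 0.32 (0.26 to 0.37) in the class, 0.30 in Piwil1-leading and 0.32 in Acrv1-leading barcodes. The barcodes of each group were chosen by rules on Ccna1 UMIs, so these ratios are a description. Just outside the rule, 76 control and 72 cKO barcodes held exactly 2 Ccna1 UMIs, with Aurka at 210 and 166 CPM. Just inside, 95 and 80 held exactly 3, with Aurka at 300 and 250 CPM. Applied after every barcode was thinned to 8000 UMIs, the rule kept 251 and 431 barcodes and the log2 ratio of the share was 0.90.

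By its Acrv1 and Piwil1 UMIs the class also leaned more to the spermatid end in the cKO library. Barcodes with any Acrv1 UMI made up 44.3% (40.3 to 48.3) of the class in the control and 56.9% (53.4 to 60.4) in cKO barcodes. Those with Piwil1 alone were 46.3% (42.3 to 50.3) and 35.5% (32.2 to 39.0). The rule itself used both genes, so these shares are a description, and they bear on every ratio of a gene that changes along the class. The rule admits Acrv1 only up to the Ccna1 count, and Ccna1, by which the barcodes were chosen, was higher in cKO barcodes. With the rule applied after thinning, the median log2 ratio of acrosome and early spermatid genes was −0.00037, against 0.69 without thinning. The part of the rule in the shares was not tested.

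Dot1l, the targeted gene (ENSMUSG00000061589, mm10 chromosome 10, 80755206 to 80795461, plus strand), was lower in the cKO barcodes of the class. Control barcodes held 2202 Dot1l UMIs, or 121 CPM, and cKO barcodes 683, or 28.7 CPM. The log2 ratio was −2.07 (−2.20 to −1.95). Piwil1-leading barcodes (115 and 61.0 CPM) gave −0.92 and Acrv1-leading barcodes (57.6 and 6.87 CPM) gave −3.07. Within the class it was −1.69 with Piwil1 alone, −2.25 with both, −2.12 with neither and −3.03 with Acrv1 alone. Control Dot1l in these ranges was at 130, 117, 124 and 88.6 CPM, and cKO Dot1l at 40.3, 24.7, 28.5 and 10.8 CPM. Among the 4 ranges the log2 ratio was nearest 0 with Piwil1 alone and farthest from 0 with Acrv1 alone, where the control level was also lowest, and in no range did the intervals of the genotypes meet.

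At 8000 UMIs per barcode a Dot1l UMI was found in 59.9% (55.9 to 63.8) of control and 18.3% (15.7 to 21.2) of cKO barcodes of the class, and without thinning in 88.6% and 43.5%. Somatic barcodes, found by Leydig, macrophage and mesenchymal markers, had a Dot1l UMI in 9.38% of 32 control and 3.19% of 94 cKO barcodes at median depths of 3394.5 and 3186.5 UMIs. In barcodes of 500 to 1000 UMIs, taken as a profile of free RNA, Dot1l was at 38.0 and 6.63 CPM. Which exons of Dot1l are floxed is not in the labels, so the 3′ reads of this gene may lie outside the deletion and leave the genotype unchecked.

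Ddx4, the germ cell helicase whose promoter drives the Cre, was lower too. Control barcodes held 8361 Ddx4 UMIs, or 460 CPM, and cKO barcodes 6179, or 260 CPM, for a log2 ratio of −0.82 (−0.87 to −0.77). In the neighbours it was −0.64 and −0.83 and in the 4 ranges between −1.02 and −0.69. It was the 1 gene past 1.5-fold among 21 measured pachytene transcription and piRNA genes, and control levels were above cKO levels in all 6 groups of barcodes.

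**Figure D3:**
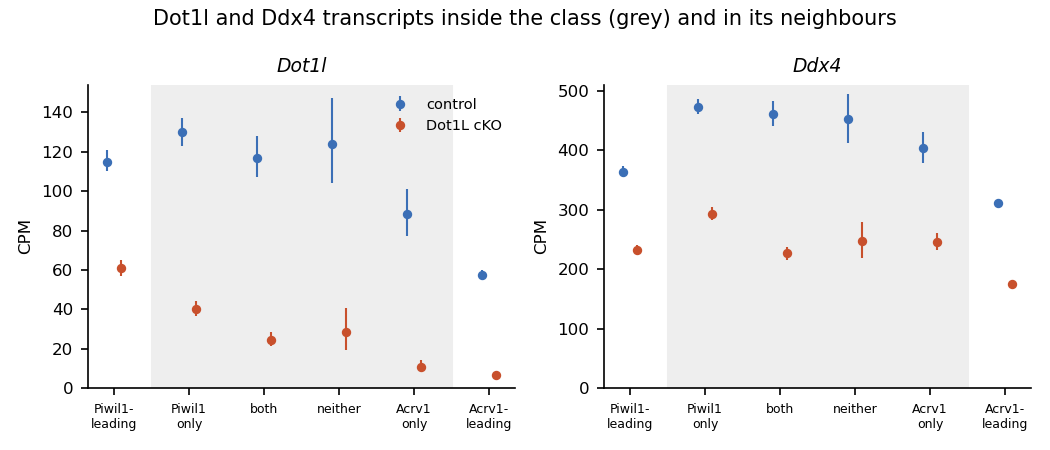
Levels in CPM (linear axes from 0) of Dot1l and Ddx4 in control and Dot1L cKO barcodes, with exact Poisson 95% intervals, in the 4 ranges of the class (shaded) and its neighbours. Dot1l in the cKO library declines from 61.0 CPM in Piwil1-leading to 6.87 CPM in Acrv1-leading barcodes, and Ddx4 is lower in the cKO library in every column.

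Among the genes of DOT1L complexes, 14 of 19 were measured, with 6 higher and 2 lower at 1.5-fold or more and a median log2 ratio of 0.27. Over all 14366 measured genes 3614 were higher in the cKO library (25.2%), 763 were lower (5.31%) and the median was 0.13. These shares are the background for the counts of every list below. Mllt10, a DOT1L cofactor, had 432 and 443 CPM, a ratio of 0.03. Aff4, a scaffold of the elongation complex, had 40.5 and 31.1 CPM, a ratio of −0.38. The 2 lower members were Dot1l itself and Ccnt1, a cyclin of transcription elongation, at −0.61. The higher members were sparse, with Kmt2a at 0.495 and 2.36 CPM and Mllt3 at 3.02 and 6.90 CPM, and 64.3% of the cKO Kmt2a UMIs lay in 10 barcodes. With free RNA subtracted Mllt3 turned to −3.07. With a minimum of 200 UMIs the median of the list was 0.0045.

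The share of genes past 1.5-fold depended on the level of the gene. It was 43.4% higher and 10.8% lower for genes of 50 to 99 UMIs, and 11.4% higher and 2.10% lower for those of 1000 or more. When the rule was applied after thinning, 1704 of 12031 genes were higher (14.2%) and 560 lower (4.65%). With free RNA subtracted 2159 of 12242 were higher (17.6%) and 1028 lower (8.40%). Free RNA was put at 10.6% of the control and 22.5% of the cKO UMIs of the class by scaling to Prm1 and Prm2, and the barcodes rich in late spermatid UMIs were included in that scaling. Its part in the differences was not tested beyond this subtraction. Of 5285 genes measured in all 4 ranges of the class, 263 were higher and 64 lower past 1.5-fold in every range. Of the same 5285 genes, 590 were higher and 121 lower past 1.5-fold in the class as a whole.

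**Figure D4:**
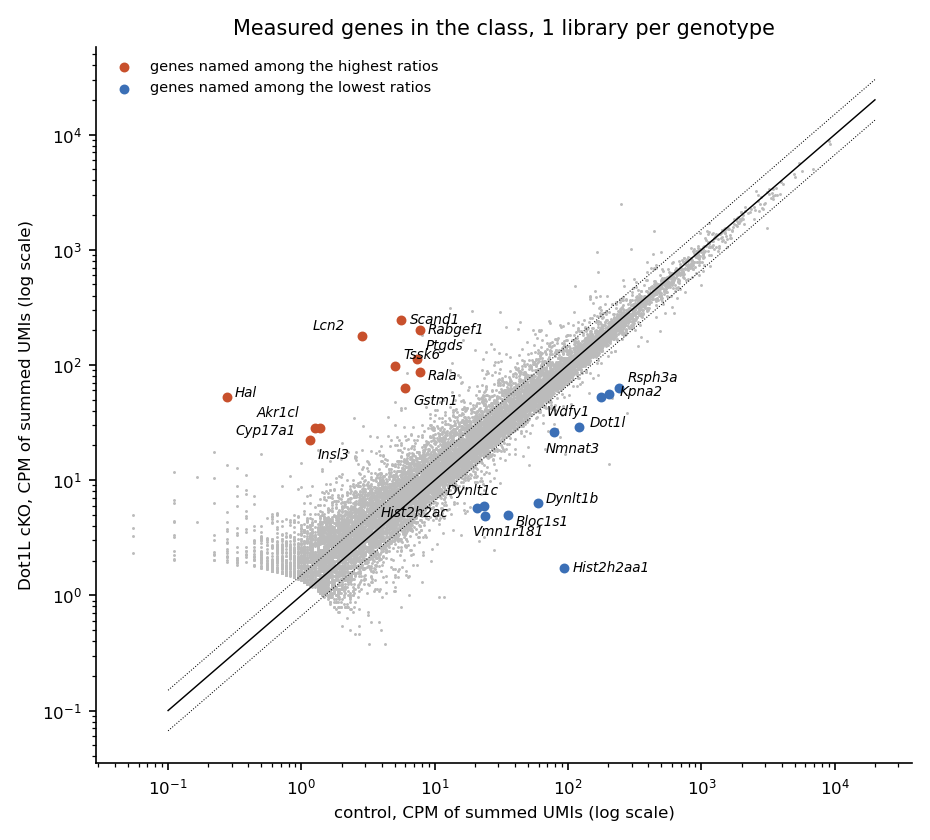
Each point is 1 of the 14366 measured genes, with control CPM on the horizontal and Dot1L cKO CPM on the vertical axis, both log scale. The solid line is equality and the dotted lines are 1.5-fold. The genes named in the text among the 12 highest and 12 lowest ratios are coloured. Hal lies farthest above the lines at 0.275 and 53.2 CPM, and a gene at 0 in either library cannot be drawn on a log axis.

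Genes of entry into division differed little between genotypes. Of 29 measured, 4 were higher and 0 lower, with a median of −0.08 and 9 above 0. Ccnb1 had 216 and 192 CPM, a ratio of −0.17, and Ccnb2 343 and 301 CPM, a ratio of −0.19. Plk1 had 138 and 114 CPM, a ratio of −0.27 (−0.35 to −0.19), and Haspin, the kinase that recruits Aurora B, 661 and 667 CPM, a ratio of 0.01. The 4 higher genes were Cks2 (150 and 256 CPM, 0.77), Pkmyt1 (15.6 and 31.7 CPM, 1.03), Ccne2 (2.31 and 4.75 CPM, 1.04) and Cks1b (1.59 and 5.64 CPM, 1.82). Cks1b and Cks2 are small subunits of the cyclin-dependent kinases and Pkmyt1 inhibits Cdk1. Other genes share 24.9% of the 3′ end of Cks2 and 21.6% of that of Cks1b, so these 2 counts are less certain.

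Genes of the anaphase promoting complex, spindle checkpoint and cohesion protection were centred at −0.01, with 4 of 28 higher and 0 lower. Fzr1, an activator of the complex, had 908 UMIs or 49.9 CPM and 2940 UMIs or 124 CPM, a ratio of 1.31 (1.20 to 1.42), with 0.94 and 1.62 in the neighbours. Rec8, the meiotic cohesin, had 6.65 and 11.4 CPM, a ratio of 0.77 that turned to −0.10 when the rule was applied after thinning. Pttg1, securin, had 270 and 195 CPM, a ratio of −0.47 that was near −0.50 and −0.31 in the neighbours. Ube2s and Ube2c, the ubiquitin-conjugating enzymes of the complex, had 968 against 1396 CPM and 90.9 against 128 CPM, ratios of 0.53 and 0.50.

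The spindle list had the lowest median of the 16 gene lists, −0.25, with 1 of 33 genes higher, 2 lower and 6 above 0. Ncaph, a condensin subunit, had 20.6 and 10.9 CPM, a ratio of −0.92 (−1.15 to −0.68), and Dlgap5, a spindle assembly factor, 20 and 12.9 CPM, a ratio of −0.64. Spc25 had 126 and 86.7 CPM, a ratio of −0.54 (−0.63 to −0.45). Tubg1, a γ-tubulin, was the higher gene at 0.97 on 51 and 131 UMIs. Of the other condensin genes, Ncapd2, Ncapd3, Ncapg and Smc2 lay between −0.38 and −0.34, whereas Smc4 was nearer equality. The list had a median of −0.06 in Piwil1-leading and −0.12 in Acrv1-leading barcodes. It was −0.15 in the class when the cKO ranges were weighted as in the control, and between −0.38 and −0.11 over all alternatives.

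**Figure D5:**
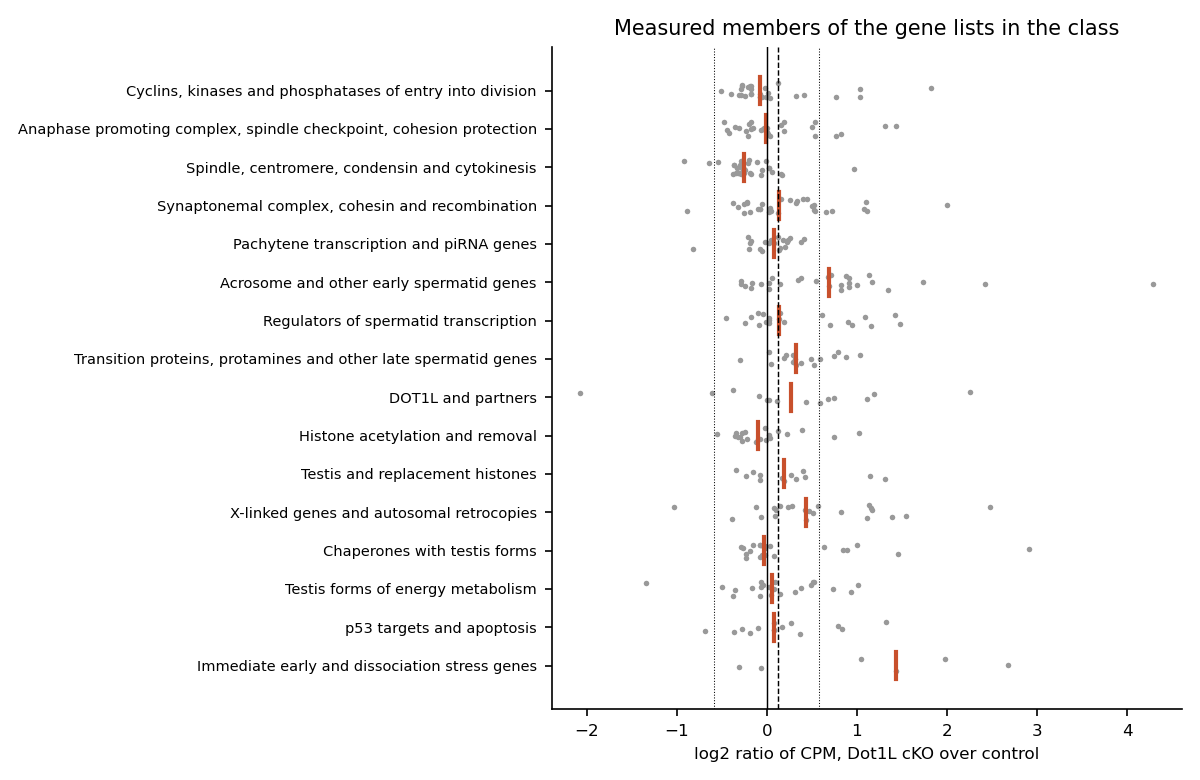
Log2 ratios of CPM, cKO over control, for the measured members of 16 gene lists, 1 point per gene (horizontal axis; vertical scatter only separates points), with list medians as bars. The dashed line is the median of all measured genes, 0.13, and the dotted lines mark 1.5-fold. Fos, at 0 in the control, is not drawn. Spindle genes lie mostly below 0, and acrosome and early spermatid genes lie mostly above it.

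Genes of synapsis and recombination, whose products belong to earlier prophase, had 6 of 32 higher, 1 lower and a median of 0.14. Tex12, a central element protein, had 91 UMIs or 5.00 CPM and 477 UMIs or 20.1 CPM, a ratio of 2.0 (1.68 to 2.34), with 0.88 and 0.92 in the neighbours. Sycp1, the transverse filament, had 58.5 and 84.8 CPM, a ratio of 0.53. Hormad2, an axis protein removed on synapsis, was the lower gene with 34.0 and 18.5 CPM, a ratio of −0.88. Syce1 (0.05), Sycp3 (0.12) and Sycp2 (−0.05) were near equality. Beside Ddx4, the piRNA list had ratios between −0.21 for Piwil2 and 0.41 for Tdrkh.

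Acrosome and early spermatid genes had the second highest median, 0.69, with 16 of 29 higher and 0 lower. Spaca1 (mm10 chromosome 4, 34024874 to 34050191, minus strand) had 1438 UMIs or 79.0 CPM and 3524 UMIs or 148 CPM, a ratio of 0.91 (0.82 to 1.0). Tssk1 had 58.4 and 103 CPM, a ratio of 0.82. Both turned direction with free RNA subtracted, to −0.87 for Spaca1 and −1.86 for Tssk1. The list's median was 0.10 in Piwil1-leading and 0.04 in Acrv1-leading barcodes. In the class it was 0.39 with the ranges weighted as in the control, −0.00037 when the rule was applied after thinning and −0.16 with free RNA subtracted.

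A few early spermatid genes were higher in the cKO library past 1.5-fold in the class and in both neighbours. Zpbp, an acrosome matrix protein, had 145 and 372 CPM, a ratio of 1.35 (1.29 to 1.42), with 1.01 and 1.26 in the neighbours and between 1.23 and 1.47 over the alternatives. Smap2, which acts in vesicle transport to the acrosome, had 9.46 and 50.6 CPM, a ratio of 2.42, with 1.84 and 2.79 in the neighbours. Tssk6, a kinase needed for histone exchange, had 5.06 and 98.8 CPM, a ratio of 4.29, with 4.18 and 4.16 in the neighbours. Acr, the acrosin protease, had 145 and 161 CPM and Spata16 604 and 495 CPM, ratios of 0.15 and −0.29.

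Regulators of spermatid transcription had 8 of 21 higher, 0 lower and a median of 0.14. Gmcl1, a protein of the nuclear envelope, had 68.0 and 182 CPM, a ratio of 1.42 (1.33 to 1.51), with 1.03 and 1.13 in the neighbours. Papolb, the cytoplasmic poly(A) polymerase of the testis, had 228 and 349 CPM, a ratio of 0.61. Crem, the activator of spermatid genes, had 334 and 381 CPM, a ratio of 0.19, and Gtf2a1l, a germ cell form of a general factor, 357 and 261 CPM, a ratio of −0.45. Tbpl1 had 1452 and 1226 CPM, a ratio of −0.24.

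Late spermatid genes had 5 of 17 higher, 0 lower and a median of 0.32, but their UMIs lay in few barcodes. Over all measured genes 25.2% were higher and 5.31% lower. Prm1 had 2838 and 2302 CPM, a ratio of −0.30, and Prm2 2585 and 3237 CPM, a ratio of 0.32. Tnp2 had 1115 and 1363 CPM, of which 46.6% and 43.0% lay in 10 barcodes. Without barcodes of over 100000 UMIs the list's median was 0.01 and the Prm2 ratio −0.09, and with free RNA subtracted the median turned to −0.95. That subtraction was scaled to Prm1 and Prm2, members of this list, and took 10.6% of control and 22.5% of cKO UMIs. The value of −0.95 is therefore no independent check of the list. Hils1, a spermatid linker histone, had 109 and 222 CPM, a ratio of 1.03. It was at 0.14 and 0.07 in the neighbours.

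Of 13 measured testis and replacement histones 2 were higher and 0 lower, with a median of 0.19. The higher members, Hist1h2aa (16 and 52 UMIs) and H1f0 (32 and 93 UMIs), had ratios of 1.31 and 1.15. H3f3a and H3f3b, which encode replacement histone H3.3, had 1219 against 1391 and 558 against 674 CPM, ratios of 0.19 and 0.27. Of 21 genes of histone acetylation and removal 2 were higher, 0 lower, and the median was −0.10. Phf7, a ubiquitin ligase of histone H2A, had 2878 and 2252 CPM, a ratio of −0.35, and Brdt, the bromodomain protein that binds acetylated histones, 177 and 163 CPM, a ratio of −0.12. Rnf8 had 23.7 and 16.2 CPM, a ratio of −0.55, and Chd5 5.88 and 11.9 CPM, a ratio of 1.02.

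X-linked genes were more often higher than genes of any autosome. Of 318 measured X-linked genes 139 were higher (43.7%) and 23 lower, with a median of 0.48, and of 32 Y-linked genes 22 were higher and 3 lower, with a median of 1.08. The autosomes had between 19.8% and 29.5% of genes higher and medians between 0.05 and 0.18. X-linked genes supplied 0.232% of control and 0.328% of cKO UMIs of the class. X-linked output was highest at the Acrv1 end, which held 30.8% of cKO and 20.6% of control barcodes of the class, and the part of this in the counts was not tested. The chromosomes were also compared without matching genes by level. Over all measured genes 43.4% were higher at 50 to 99 UMIs and 11.4% at 1000 or more, and the part of level was not tested either.

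In the list of X-linked genes and the autosomal retrocopies that serve in their place, 8 of 23 were higher, 1 lower, and the median was 0.43. It was 0.31 with weighted ranges and 0.03 when the rule was applied after thinning. The retrocopies Pgk2 (289 and 305 CPM), Pdha2 (156 and 174 CPM), Rpl10l (115 and 123 CPM) and Cetn1 (2462 and 2361 CPM) had ratios between −0.06 and 0.15. D1Pas1, a helicase retrocopy, was the lower gene with 64.4 and 31.6 CPM, a ratio of −1.03 (−1.16 to −0.89), and −0.85 and −1.17 in the neighbours. Eif1ax had 2.75 and 8.03 CPM, a ratio of 1.55, with 0.82 and 0.87 in the neighbours. Rpl10 was at 2.48, but 67.6% of its 3′ end is shared with other genes, so its count is uncertain.

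Chaperones, testis forms of energy metabolism and p53 targets had medians of −0.03, 0.06 and 0.08. Of 22 chaperones 6 were higher and 0 lower, beside 25.2% and 5.31% of all measured genes. Hspe1 and Hspd1, the mitochondrial chaperonin pair, had 3.24 against 24.4 CPM and 2.58 against 7.11 CPM, ratios of 2.91 and 1.46, while Hspa2, the testis chaperone needed for Cdk1 activity, had 1302 and 1334 CPM, a ratio of 0.04. In energy metabolism 3 of 22 were higher and 1 lower. Ldhc, the testis lactate dehydrogenase, had 9081 and 8708 CPM, a ratio of −0.06, and the lower gene was Eno1 at −1.34, whose 3′ end is 87.0% shared.

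Of 14 measured p53 targets and apoptosis genes 3 were higher and 1 lower, beside 25.2% and 5.31% of all measured genes. Mdm2, the ligase that degrades p53, had 94.7 and 100 CPM, a ratio of 0.08, and Bax was at 1.32 on 30 and 98 UMIs. Of 7 measured immediate early and dissociation stress genes 5 were higher and 0 lower, and the median was 1.43. They were sparse: Jun had 71 and 192 UMIs, and Fos 0 and 56, at least 14.3-fold higher against a floor of 3 control UMIs over the class, with 82.1% of its UMIs in 10 barcodes. Atf4 and Dusp1, with 264 to 406 UMIs a library, were at −0.31 and −0.06. Without the late spermatid and Leydig barcodes the median was 0.38, with 200 or more UMIs −0.06, and with free RNA subtracted −0.09.

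Of the 12 highest ratios named by size, 6 were found in 346 or more cKO barcodes. Hal, histidine ammonia-lyase (ENSMUSG00000020017, mm10 chromosome 10, 93488768 to 93519304, plus strand), rested on 5 control UMIs (0.275 CPM) and 1264 cKO UMIs (53.2 CPM), a ratio of 7.60 (6.37 to 9.22). Its cKO UMIs came from 560 barcodes. Scand1 (chromosome 2, 156311847 to 156312704, minus strand) had 5.61 and 247 CPM, a ratio of 5.46, and a UMI in 91 of 616 control and 784 of 791 cKO barcodes. Rabgef1 (4.70), Tssk6 (4.29) and Rala (3.5) had a UMI in 346 to 771 cKO barcodes, and Tssk6 had 36.5% of its cKO UMIs in 10 barcodes. Rala, a small GTPase, had 7.70 and 86.9 CPM. All 12 were past 1.5-fold in the same direction in both neighbours, where 11.8% (Piwil1-leading) and 19.2% (Acrv1-leading) of all measured genes were higher by that rule. Of 8 measured in somatic barcodes 2 had the same direction, and 37.6% of all genes measured there were past 1.5-fold in either direction. The markers that chose the somatic barcodes include Insl3 and Cyp17a1. At least 10 Leydig marker UMIs were in 28.1% of control and 9.57% of cKO somatic barcodes. The somatic directions cannot be told apart from that choice and mix of cells.

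The other 6 had most of their cKO UMIs in 10 barcodes, and several are known from Leydig cells. Cyp17a1, a steroid hydroxylase, Insl3, a Leydig hormone, and Akr1cl had ratios of 4.48, 4.27 and 4.38, and between 80.3% and 82.8% of their cKO UMIs lay in 10 barcodes. The same held for Lcn2 (82.0%), Ptgds (75.2%) and Gstm1 (75%). The 5 Leydig markers together were at 5.99 CPM in control and 80.8 CPM in cKO barcodes, none of them at 0, and all 5 were higher. Without late spermatid and Leydig barcodes the ratios were −0.61 for Cyp17a1, 0.43 for Ptgds, 0.98 for Gstm1, 1.59 for Akr1cl, 1.62 for Lcn2 and 2.52 for Insl3. Cyp17a1 and Insl3 are among the 5 markers by which the Leydig barcodes were left out. Their lower ratios follow in part from that choice and are a description. Insl3 shares 100% of its 3′ end with another gene. Sertoli markers summed to 47.4 and 67.3 CPM, macrophage markers to 14.7 and 13.1 CPM, mesenchymal to 4.23 and 12.8 CPM and endothelial to 2.25 and 3.03 CPM. Markers without a UMI in the control were Amh, Pdgfra and Tie1 of the Sertoli, mesenchymal and endothelial lists and C1qa and Lyz2 of the macrophage list, and Amh was at 0 in both libraries.

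The 12 lowest ratios included many genes whose reads cannot be placed with certainty. Hist2h2aa1 had 1705 and 41 UMIs, a ratio of −5.76, and its 3′ end is shared with other genes by 100%. The same applies to Dynlt1b (−3.23, 100% shared), Bloc1s1 (−2.83, 90.0%), Dynlt1c (−1.97, 90.6%), Rsph3a (−1.93, 83.9%), Kpna2 (−1.85, 98.3%) and in part to Hist2h2ac (−1.86, 44.0%). The other 4 share less of their 3′ ends. Beside Dot1l they were Wdfy1 (175 and 52.7 CPM, −1.73), an endosomal adaptor, Vmn1r181 (24.0 and 4.92 CPM, −2.28), a vomeronasal receptor gene, and Nmnat3 (77.7 and 26.3 CPM, −1.56), an enzyme of NAD synthesis. All 12 were lower past 1.5-fold in both neighbours, where 4.74% and 6.26% of all measured genes were, with Wdfy1 at −2.41 and −1.24 and Nmnat3 at −1.71 and −0.92. The ranking covers named genes with 100 or more UMIs and 20 or more CPM, and sparser genes had higher ratios, such as Hsd3b1 (2 and 106 UMIs, 5.34), a Leydig marker.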

How the data were processed

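The deposited files, 1 per library, hold UMI counts per gene and cell barcode, which the authors obtained from Cell Ranger 7.0.0, per the file headers. The submitters' processing notes name mm10 and Seurat 4.1.0, and how the matrices were filtered is not given in the sources used here. Counts were used as deposited, summed per class and library and scaled to CPM with Python 3.11.15, numpy 2.4.6 and scipy 1.17.1. The class was chosen by the rule on Ccna1, Piwil1 and Acrv1, and its members and all gene lists were chosen with earlier results of these data known. Genes with at least 50 UMIs in a class, both libraries together, counted as measured, and 1.5-fold as a call.

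Genes were named by 4 rules. These took the 12 highest and 12 lowest ratios among genes with 100 UMIs and 20 CPM, up to 4 members per list by ratio and 4 by level, the marker and targeted genes, and the 15 genes highest over both neighbours at 50 CPM. Predicted, clone, mitochondrial and hemoglobin symbols were passed over (4, 10 and 1). Of the 12 highest and the 12 lowest, 1 gene each is not reported here. Other named genes were chosen after their values were seen. Gene positions are from GENCODE vM21. A shared 3′ end is the percent of 40-base words of the last 400 bases that another gene also holds, and such counts are uncertain. Barcodes were kept without removing doublets. The automatic threshold of Scrublet in scanpy 1.11.5 called 0 barcodes. Only 0.107% (control) and 0.0298% (cKO) of its own simulated doublets passed that threshold, so the call cannot show that doublets were absent. Scripts were tested on simulated data. Alternatives changed the rule, the scaling, the gene minimum and the barcodes left out.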

Additional observations from a re-analysis of the deposited data

Results flagged for a closer look

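Sesn1, a stress-induced gene of the p53 pathway, differed in direction between stages. Control barcodes of the class held 370 Sesn1 UMIs (20.3 CPM) and cKO barcodes 301 (12.7 CPM), for a log2 ratio of −0.68 (−0.91 to −0.46). In Acrv1-leading barcodes it had 4.22 and 6.98 CPM, a ratio of 0.72 (0.42 to 1.03), and in Piwil1-leading barcodes 16.9 and 16.5 CPM, a ratio of −0.03. The difference between the stages was not tested.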

How the results depend on the processing

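Of 2422 log2 ratios of named genes under alternatives, 1819 lay within their counting interval, 579 lay outside it, and 24 ratios of genes past 1.5-fold changed sign. List medians and gene minimums are not in these counts. No paired analysis was possible because each genotype has 1 library, which is also why no library could be left out. The Scrublet threshold called no barcode, so leaving out its calls gave no value, and the alternatives on top Scrublet scores, late spermatid or Leydig barcodes, barcodes over 100000 UMIs and all of the last 3 together were chosen after seeing the data. The cause of each change was not tested. The log2 ratio of the share was 0.67 with 5 or more Ccna1 UMIs, 0.90 with the rule after thinning, and 0.30 without late or Leydig barcodes and without all 3 kinds. The count of higher genes was 1704 with the rule after thinning, 2159 with free RNA subtracted, 1843 with 200 or more UMIs and 9665 with no minimum. The count of lower genes was 1167 with median-of-ratios scaling, 350 with 200 or more UMIs and 3112 with no minimum. Median-of-ratios scaling put 72.0% of called genes on the higher side, against 82.6%. Dot1l was at −1.82 with the rule after thinning, −2.24 with barcodes weighted equally, −2.20 with median-of-ratios scaling, −1.95 with weighted ranges and −1.90 with free RNA subtracted. The spindle median was −0.17 with Ccna1 at least 2 times Piwil1 and Acrv1, −0.11 after thinning, −0.17 without late or Leydig barcodes and without all 3 kinds, −0.38 with median-of-ratios scaling, −0.15 with weighted ranges and −0.11 with free RNA subtracted. The late spermatid median was 0.60 with 5 Ccna1 UMIs, 0.0033 with the 2-times rule, 0.03 after thinning, 0.63 without top Scrublet scores, 0.01 without barcodes over 100000 UMIs and with equal weights, 0.20 with median-of-ratios scaling and −0.95 with free RNA subtracted. The X-linked list was at 0.03 after thinning and the chaperones at −0.16 with median-of-ratios scaling. Signs changed with the rule after thinning for the early spermatid list (−0.00037), Rec8 (−0.10), Rad51ap2 (−0.18), Hyal5 (−0.25), Cypt4 (−0.31), Cdyl (−0.07), Rhox13 (−0.03), Pdilt (−0.02), Ldhb (−0.21), Clu (−0.37), C1qb (−0.57), Acrv1 (−0.01) and Izumo1 (−0.20). C1qb was at −0.02 with the 2-times rule. Without late or Leydig barcodes and without all 3 kinds, signs changed for Cyp17a1 (−0.61 and −0.65), Clu (−0.19 and −0.17) and Star (−0.25 and −0.23). Cyp17a1 and Star are among the markers by which the Leydig barcodes were left out. With free RNA subtracted they changed for the early spermatid list (−0.16), the late spermatid list (−0.95), the dissociation stress list (−0.09), Mllt3 (−3.07), Hspa8 (−0.02), Ccng1 (−0.16), Spaca1 (−0.87) and Tssk1 (−1.86), and with 200 or more UMIs for the dissociation stress list (−0.06).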

Other observations

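Among the most abundant transcripts of the class were several of sperm tail and testis-specific proteins. Meig1, needed for assembly of the sperm tail, took 0.926% of control UMIs at 9256 CPM and was at 8320 CPM in the cKO library. Lyar was at 5717 and 4834 CPM, Fabp9, a fatty acid-binding protein of the testis, at 5358 and 5607 CPM, and Ropn1l, of the fibrous sheath and radial spokes, at 4963 and 4514 CPM. Ubb, a polyubiquitin gene, was at 6850 and 5032 CPM. Of markers of earlier germ cells, those of spermatogonia summed to 9.40 and 18 CPM and those of leptotene to zygotene to 95.5 and 97.1 CPM. The latter summed to 166 and 176 CPM in Piwil1-leading and to 27.6 and 31.7 CPM in Acrv1-leading barcodes. Of 5 measured leptotene to zygotene markers, 3 were 1.5-fold or more above Piwil1-leading barcodes in both libraries and 2 below. The shares over all measured genes were 22.9% and 16.0%.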
